A study of Homo sapiens with 4 samples.

Results

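The nuclear-encoded subunits of the respiratory chain and of ATP synthase were measured in HaCaT cells with and without knockdown of ALKBH5. Members were the protein-coding genes of the deposited tables whose names mark them as subunits of complex I (NDUFA, NDUFB, NDUFC, NDUFS and NDUFV names, without the NDUFAF assembly factors), complex II (SDHA to SDHD), complex III (UQCR names), complex IV (COX4 to COX8 names) or ATP synthase, here called complex V (ATP5 names). The rule used names only and no measured value. It gave 91 of 58735 genes in the tables, with 38 in complex I, 4 in complex II, 9 in complex III, 19 in complex IV and 21 in complex V. NDUFA4 and NDUFA4L2 carry complex I names but were grouped with complex IV, where NDUFA4 is now placed. RNA-seq of poly-A RNA was performed on HaCaT, an established line of human keratinocytes that is spelled HaCAT in the labels, in 2 groups of 2 libraries. The siControl group was labelled WT and had received a normal control siRNA, and the siALKBH5 group was labelled ALKBH5 knockdown and had received siRNA against ALKBH5, an eraser of m6A from RNA. Both groups were grown in serum-containing DMEM and transfected with Lipofectamine 3000. Whether the libraries of a group came from separate cultures is not stated in the sources used here, so p-values measure only the spread between these libraries, which may be technical.

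The respiratory chain sits in the inner mitochondrial membrane. Complex I takes electrons from NADH and complex II from succinate, and both pass them to ubiquinone. Complex III passes them on to cytochrome c, and complex IV hands them to oxygen. Complexes I, III and IV pump protons as they do so, and ATP synthase lets the protons flow back through its c ring, which turns a central stalk inside the F1 head and drives the making of ATP. Most subunits are encoded in the nucleus and imported, while a small set, which includes the main proton-pumping subunits, is encoded in mitochondrial DNA. Transcripts of both sets are abundant in most cell types, and most are polyadenylated, MT-ND6 being known as an exception.

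Library totals were 16017502 and 17877181 counts (siControl) and 18837807 and 16618169 counts (siALKBH5). Levels are given as CPM, the counts per 1000000 counts of a library size corrected by TMM, and, where genes are compared with each other, as FPKM recomputed from these CPM and the gene length in the tables. Groups were compared with the quasi-likelihood test of edgeR over 15075 genes with Benjamini-Hochberg adjustment, and genes with an adjusted p under 0.05 were called higher or lower. ALKBH5 itself was at 93.8 and 87.6 CPM in the siControl libraries against 51.2 and 49.6 CPM in the siALKBH5 libraries. The knockdown libraries lay well under the control libraries, at 55.5% of control (log2 fold change -0.85, SE 0.05, adjusted p = 6.4e-15). All 8 keratinocyte markers were detected at 1 CPM or more, and their summed level was 17122 to 17518 CPM in siControl and 23241 to 23300 CPM in siALKBH5. Of the fibroblast list, 3 of 6 genes reached 1 CPM, with COL1A2 and PDGFRA at 0 and a summed level of 21.9 to 22.8 CPM in siControl and 18.7 to 19.1 CPM in siALKBH5. Of the melanocyte list 1 of 4 genes reached 1 CPM, with TYR at 0 and a summed level of 2.72 to 3.23 CPM in siControl and 3.16 to 3.89 CPM in siALKBH5. Of the endothelial list 2 of 3 did, with a sum of 32.5 CPM in each siControl library and of 35.0 to 35.5 CPM after knockdown, most of it VWF (up to 26.8 CPM). Of the immune list 0 of 3 did. The part of keratinocyte state in the results below was not tested.

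Subunit transcripts were, as a whole, slightly more abundant after ALKBH5 knockdown. Their summed level was 11502 and 11565 CPM in the siControl libraries and 12486 and 12541 CPM in the siALKBH5 libraries, so that both siALKBH5 libraries were above both siControl libraries and the sum stood at 108.5% of control. In bulk RNA, a change in the number of cells of a type cannot be told apart from a change of RNA per cell. Of the 91 members, 83 passed the expression filter and were tested. The other 8 were the readthrough genes NDUFC2-KCTD14 and ATP5MF-PTCD1, the isoforms COX4I2, COX6A2, COX7A1, COX7B2 and COX8C, and ATP5MGL. Among the members tested, 33 were called higher and 7 lower in siALKBH5, and 43 were not called. Over all genes tested, 19.3% were called higher and 17.3% lower. Since the members are more abundant than most genes and abundant genes are called more often, the same shares were taken over genes with a mean of at least 20 CPM. There, 28.8% of all genes were called higher and 24% lower, while 32 of 73 members (43.8%) were called higher and 6 (8.22%) lower. The median log2 fold change was 0.12 over the 83 members and -0.01 over all genes tested. It was 0.05 over the 73 abundant members and 0.01 over all abundant genes. The changes were small in size, and 0 members were called with a log2 fold change of 1 or more in either direction, against 2.92% of all genes. With edgeR, 0 members passed that fold at an unadjusted p under 0.05 as well, and 0 did so with DESeq2 or limma. Both siALKBH5 libraries were above both siControl libraries in 40 members and below both in 18, and the groups overlapped in 25. Groups that do not overlap were found in 66.3% of all genes. The median over the members was 0.06 without siControl replicate 1, and the count of members called lower was 4 with DESeq2.

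**Figure D1:**
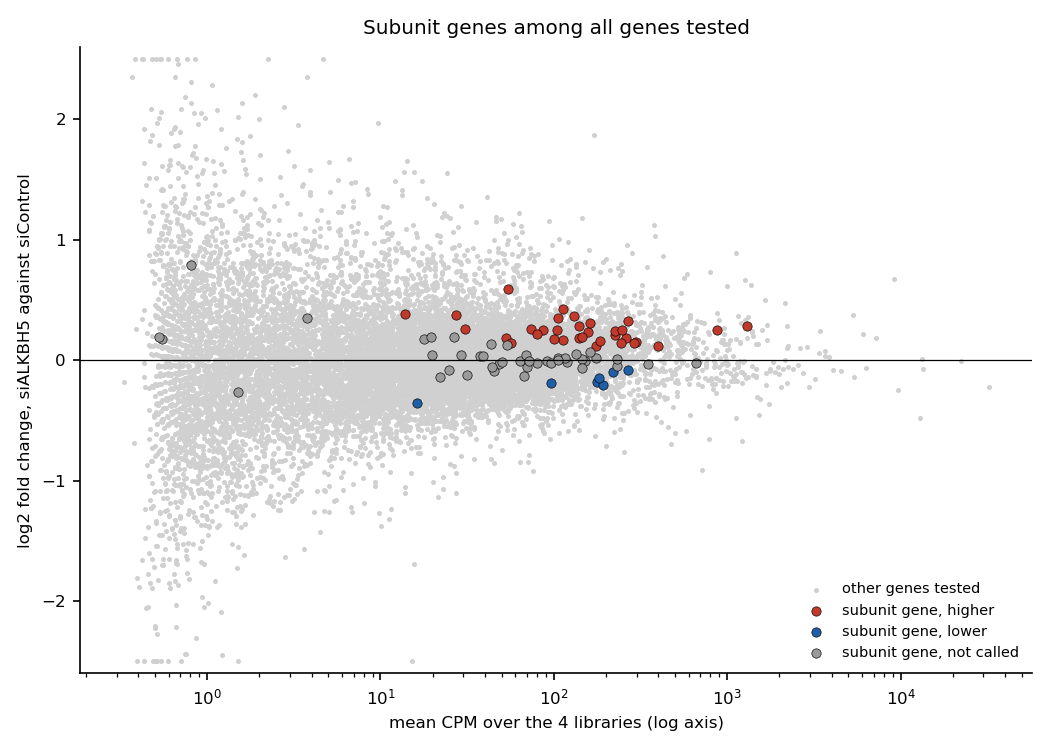
Mean CPM over the 4 libraries (x, log axis) against the log2 fold change of siALKBH5 over siControl (y) for all genes tested, with values beyond 2.5 in size drawn at 2.5. Coloured points are the 83 subunit genes tested, red where called higher (33), blue where called lower (7) and grey with a dark outline where not called (43), and light grey dots are the other genes; the called subunit genes lie within 0.59 of 0.

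Summed by complex, the level in siALKBH5 was 108.6% of control for complex I, 108.9% for complex II, 106.7% for complex III, 105.3% for complex IV and 111.2% for complex V. In each complex the sum of both siALKBH5 libraries was above that of both siControl libraries. Such sums weigh abundant genes most. Complex V summed to 4080 and 4123 CPM in siControl and 4536 and 4581 CPM in siALKBH5. The 5 genes of its F1 head alone summed to 2572 and 2598 CPM in siControl and 2967 and 3023 CPM in siALKBH5. The members of a complex did not move as a block. Complex I had 14 higher, 1 lower and 22 not called of 37 tested, complex II 3 higher and 1 lower of 4, and complex III 4 higher, 3 lower and 2 not called of 9. Complex IV had 5 higher, 0 lower and 9 not called of 14, and complex V 7 higher, 2 lower and 10 not called of 19. The shares called higher were 37.8%, 75.0%, 44.4%, 35.7% and 36.8% for complexes I to V. The shares called lower were 2.70%, 25.0%, 33.3%, 0% and 10.5%. Over all genes tested, 19.3% were called higher and 17.3% lower. Over genes with a mean of at least 20 CPM, 28.8% were higher and 24% lower. In complex IV, 0 members were lower at an unadjusted p under 0.05 with edgeR or DESeq2, and 1 was with limma on log2(FPKM + 1). The median log2 fold changes were 0.16, 0.16, 0.03 and 0.10 for complexes I to IV and -0.00314 for complex V, beside -0.01 for all genes.

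**Figure D2:**
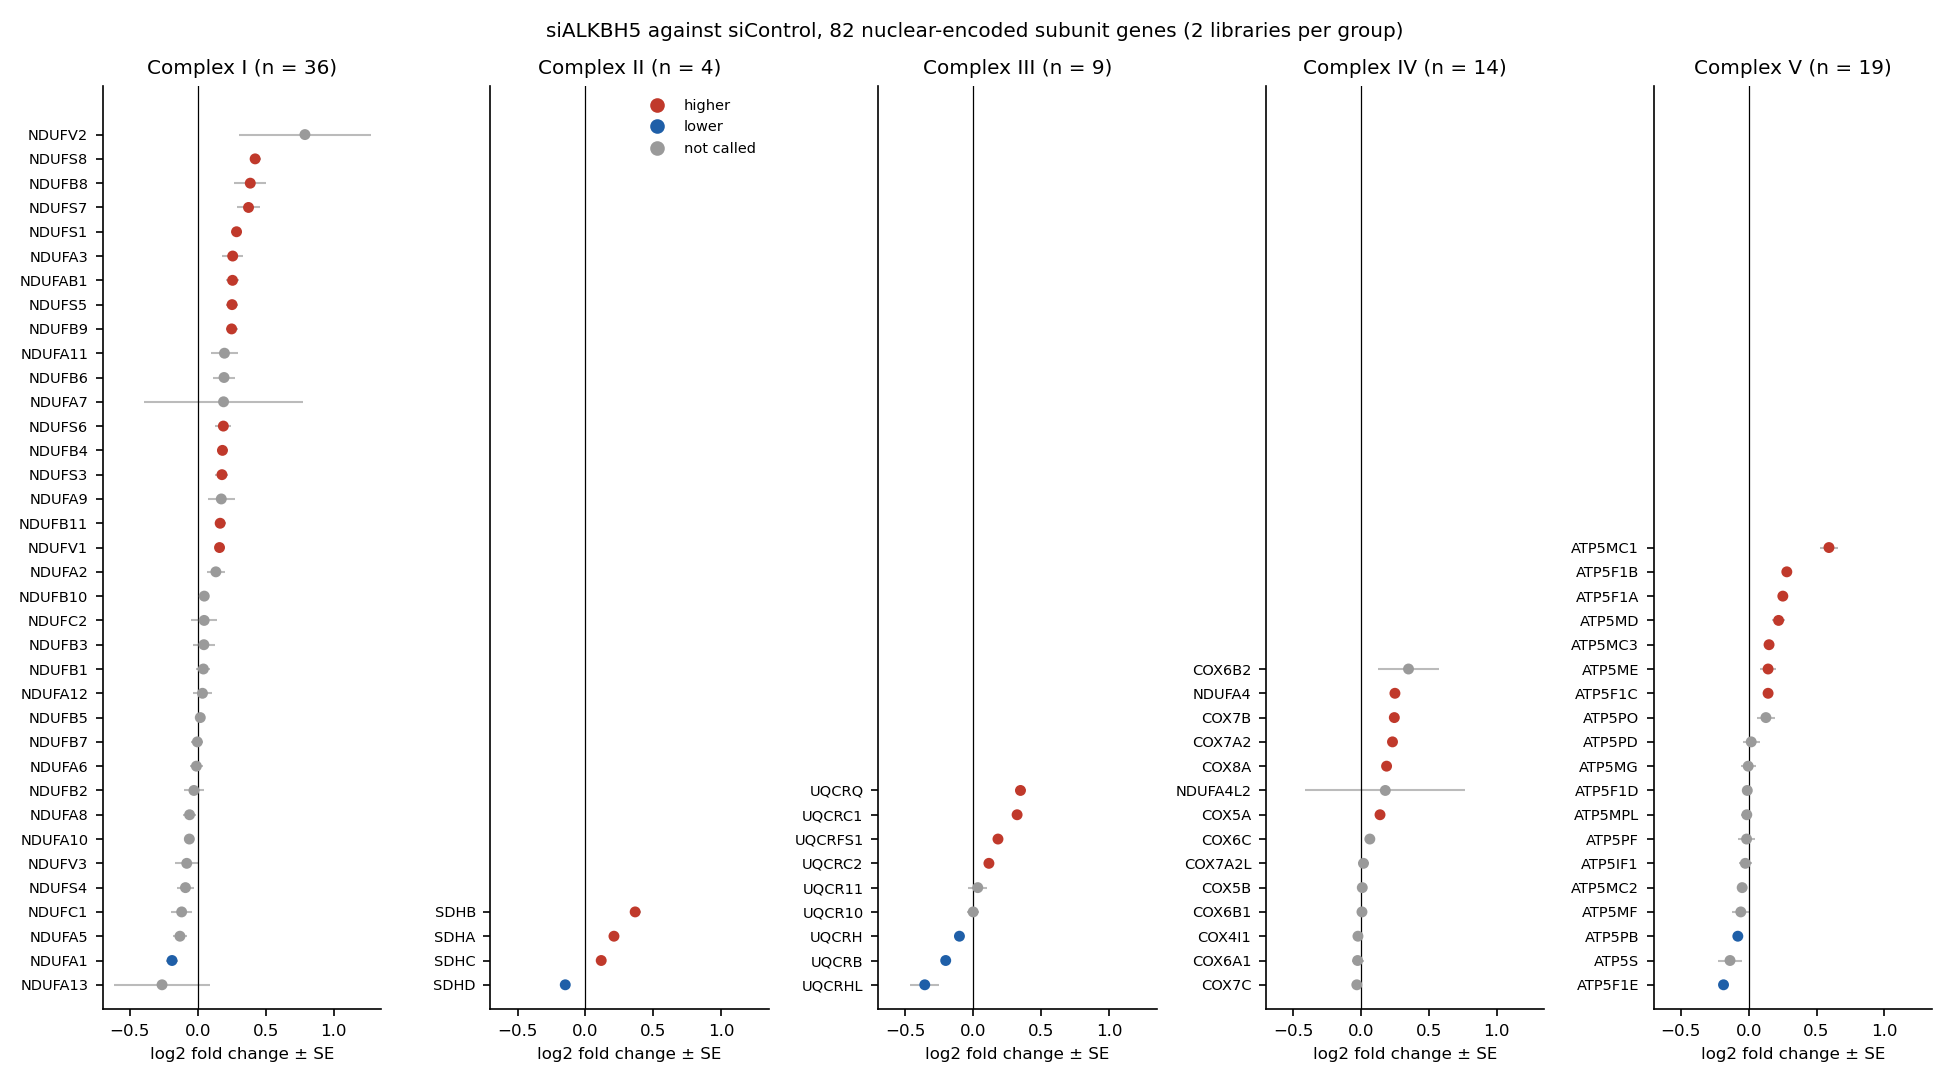
Log2 fold change of siALKBH5 over siControl with its standard error (x) for 82 of the subunit genes tested (rows), by complex, from 2 libraries per group. Red marks genes called higher, blue lower and grey not called; the widest bars belong to NDUFA7, NDUFA4L2, NDUFV2 and NDUFA13, which had few counts.

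In complex I, most core subunits were called higher, and 8 of 30 accessory subunits were. The core subunits hold the flavin and the iron-sulfur clusters that carry electrons from NADH to ubiquinone. Of the 6 nuclear ones given here, 5 were called higher, and their summed level was 516 and 517 CPM in siControl and 628 and 605 CPM in siALKBH5, or 119.5% of control. The 30 accessory subunits had 8 higher (26.7%), 1 lower (3.33%) and 21 not called, and a summed level at 104.3% of control. Over all genes tested, 19.3% were called higher and 17.3% lower. Over genes with a mean of at least 20 CPM, these shares were 28.8% and 24%. The medians were 0.33 for the core and 0.05 for the accessory subunits. The difference between these groups of genes was not tested. NDUFS8 (ENSG00000110717, chr11:68030617-68036644, plus strand), which binds iron-sulfur clusters on the path to ubiquinone, was at 99.2 and 94.6 CPM in the siControl libraries against 129 and 131 CPM in the siALKBH5 libraries. The groups were well apart (log2 fold change 0.42, SE 0.04, adjusted p = 3.9e-10). NDUFS7, which holds the last cluster before ubiquinone, was at 23.5 and 24.3 CPM in siControl and 32.6 and 29.2 CPM in siALKBH5. Both siALKBH5 libraries were higher (log2 fold change 0.37, SE 0.08, adjusted p = 4.7e-04). NDUFS1, the largest subunit of the NADH-oxidizing arm, rose from 125 and 127 to 159 and 149 CPM (log2 fold change 0.29, SE 0.04, adjusted p = 3.8e-07). NDUFV1, which binds NADH and the flavin, was at 177 and 173 CPM in siControl and 195 and 196 CPM in siALKBH5 (log2 fold change 0.16, SE 0.03, adjusted p = 2.4e-04). In each of these genes the libraries of the groups did not overlap. NDUFS3 was at 90.6 and 97.0 CPM in siControl and 112 and 100.3 CPM in siALKBH5 (log2 fold change 0.18, SE 0.05, adjusted p = 0.0037), and its call was lost without siALKBH5 replicate 1 (log2 fold change 0.10, adjusted p = 0.2) or siControl replicate 1 (adjusted p = 0.0503), and also in both limma fits on log2 FPKM (adjusted p = 0.14). NDUFV2, which also binds an iron-sulfur cluster, had only 12, 8, 22 and 14 counts in siControl 1 and 2 and siALKBH5 1 and 2, and it was not called (log2 fold change 0.79, SE 0.48, adjusted p = 0.21).

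Of the accessory subunits of complex I, which surround the core and are needed for its assembly and stability, the largest called change was in NDUFB8, at 10.9 and 13.2 CPM in siControl and 15.0 and 16.5 CPM in siALKBH5 (log2 fold change 0.39, SE 0.12, adjusted p = 0.01). In NDUFB8, 85.2% of the coding bases are shared with another gene model on the same strand, and its call was lost without siControl replicate 1 (adjusted p = 0.17) or siALKBH5 replicate 2 (adjusted p = 0.067). NDUFAB1, the mitochondrial acyl carrier protein, which also serves fatty acid synthesis in mitochondria, was at 68.0 and 66.9 CPM in the siControl libraries against 81.0 and 80.1 CPM in the siALKBH5 libraries. Its groups did not overlap (log2 fold change 0.26, SE 0.05, adjusted p = 7.6e-05). NDUFS5 was at 79.0 and 78.1 CPM in siControl and 92.9 and 94.3 CPM in siALKBH5 (log2 fold change 0.25, SE 0.05, adjusted p = 3.2e-05), and NDUFB9 was at 91.7 and 99.5 CPM in siControl and 111 and 117 CPM in siALKBH5 (log2 fold change 0.25, SE 0.04, adjusted p = 3.6e-05). NDUFB4, NDUFB11, NDUFS6 and NDUFA3 completed the higher calls, with log2 fold changes of 0.18, 0.16, 0.19 and 0.26. The call of NDUFS6 was lost without siALKBH5 replicate 1 (adjusted p = 0.19) or siControl replicate 1 (adjusted p = 0.081), and that of NDUFA3 without siControl replicate 2 (log2 fold change 0.17, adjusted p = 0.19) or siALKBH5 replicate 1 (adjusted p = 0.06). With DESeq2, the calls of NDUFB8, NDUFS6 and NDUFA3 were also lost (adjusted p = 0.062, 0.075 and 0.066), and so they were in both limma fits on log2 FPKM (adjusted p = 0.054 to 0.058). NDUFA1, a small membrane subunit, was the lower call, at 103 and 101 CPM in the siControl libraries against 87.0 and 92.4 CPM in the siALKBH5 libraries. Both siALKBH5 libraries lay under both siControl libraries (log2 fold change -0.19, SE 0.04, adjusted p = 9.2e-04). In NDUFA1, 44.5% of the exon bases are shared with RNF113A on the opposite strand, and in NDUFB11 44.9% with RBM10. The library protocol does not mention a strand mark, so whether the reads of such pairs were told apart is not known. NDUFA2, NDUFA11 and NDUFA5 were not called with all libraries, at 0.13, 0.20 and -0.13, and were called without siALKBH5 replicate 1 (NDUFA2, adjusted p = 0.039) or siALKBH5 replicate 2 (NDUFA11, 0.023, and NDUFA5, 0.012).

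Complex II has 4 subunits, all nuclear, and its members moved in both directions. The head of the complex, which oxidizes succinate in the matrix, is made of SDHA, the flavoprotein, and SDHB, the iron-sulfur protein. SDHB (ENSG00000117118, chr1:17018722-17054170, minus strand) was at 117 and 112 CPM in the siControl libraries against 151 and 144 CPM in the siALKBH5 libraries. The lowest siALKBH5 library was above the highest siControl library (log2 fold change 0.37, SE 0.04, adjusted p = 4.6e-09). SDHA was at 211 and 207 CPM in siControl and 235 and 248.7 CPM in siALKBH5, again without overlap (log2 fold change 0.21, SE 0.03, adjusted p = 3.6e-06). Pseudogenes named after SDHA took 10.2% of the counts of SDHA and these pseudogenes together. The membrane anchors SDHC and SDHD hold the haem and form part of the ubiquinone site. SDHC was at 163 and 174 CPM in siControl and 188 and 177 CPM in siALKBH5 (log2 fold change 0.12, SE 0.04, adjusted p = 0.014), and its call was lost without siControl replicate 1 (log2 fold change 0.07, adjusted p = 0.21) or siALKBH5 replicate 1 (0.07, adjusted p = 0.24). It was also lost with DESeq2 (adjusted p = 0.066), with library size only (adjusted p = 0.053) and in both limma fits on log2 FPKM (adjusted p = 0.27). SDHD (ENSG00000204370, chr11:112086773-112120013, plus strand) went the other way, at 191 and 191 CPM in the siControl libraries against 174 and 170.3 CPM in the siALKBH5 libraries. Its siControl values were equal within 1 CPM, and the siALKBH5 values lay under them (log2 fold change -0.15, SE 0.03, adjusted p = 5.9e-04). SDHD shares 47.7% of its coding bases with another gene model on the same strand.

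**Figure D3:**
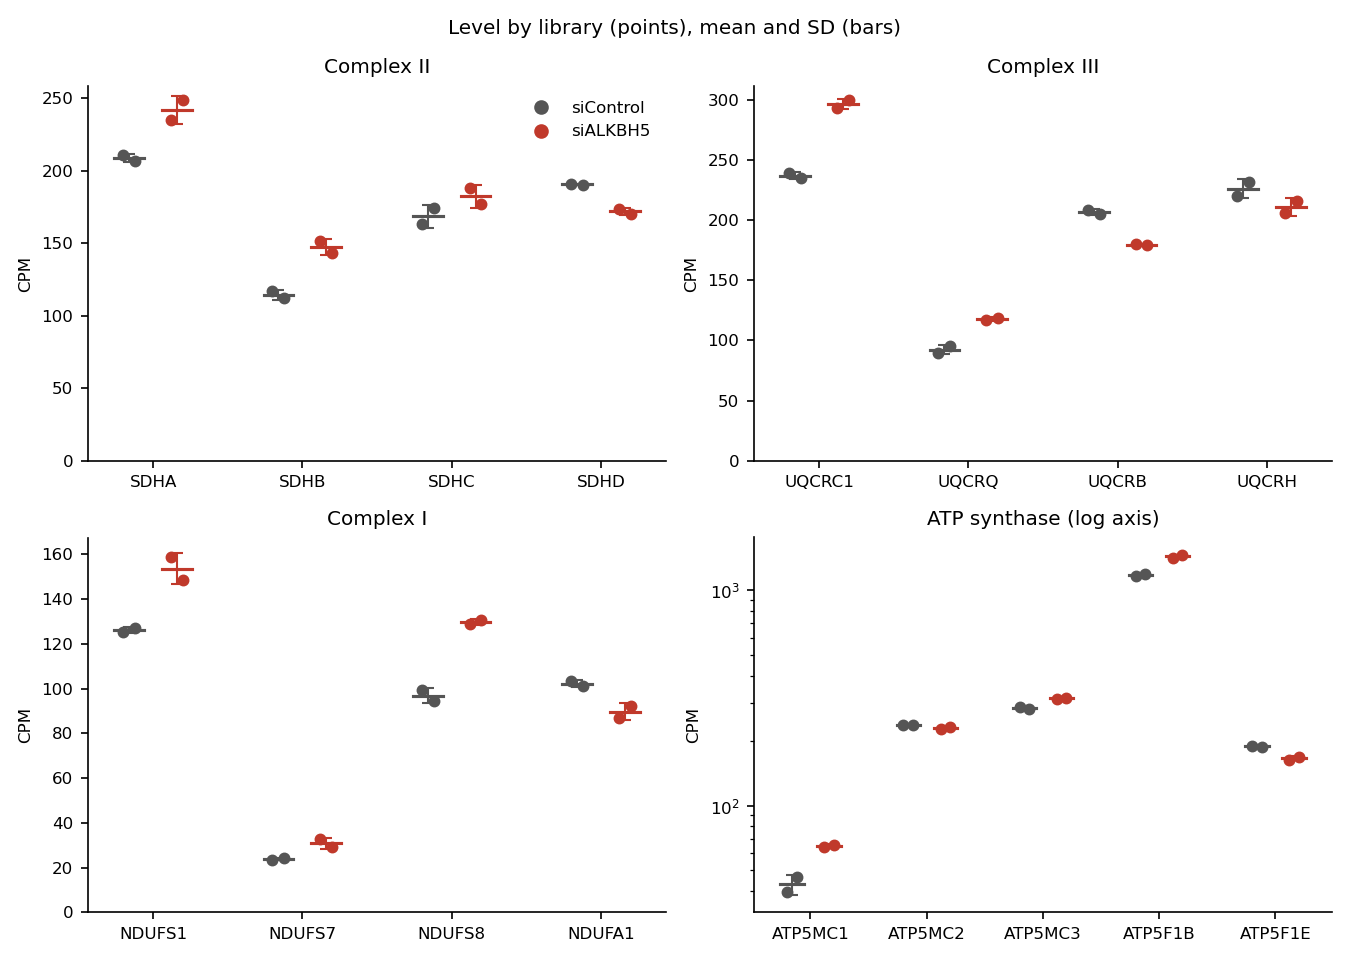
CPM (y) of selected subunit genes in each library (points), with the mean and SD of the 2 siControl (grey) and 2 siALKBH5 (red) libraries. The axis is linear from 0 in the panels of complexes I, II and III and logarithmic for ATP synthase; SDHD, NDUFA1, UQCRB, UQCRH and ATP5F1E lie lower in siALKBH5, ATP5MC2 was not called, and the other genes lie higher.

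The promoters of the SDH genes with opposite directions are shown because they hold the same kinds of motif. Motifs of NRF1, of ETS factors such as GABPA, and of YY1 are known from promoters of respiratory chain genes. The sequences are from RefSeq (GRCh38.p14), run from 250 bases before to 50 bases after the annotated start, and are given 5′ to 3′ on the strand of the gene, with matches to GCATGCGC (the end of the NRF1 palindrome), CCGGAAG (the ETS core) and AAGATGGCG (YY1) on either strand in capitals. The SDHB promoter lies at chr1:17053983-17054282 on the minus strand, the SDHD promoter at chr11:112086623-112086922 on the plus strand, and the ATP5MC1 promoter, from the member with the largest called change, at chr17:48892537-48892836 on the plus strand.
SDHB: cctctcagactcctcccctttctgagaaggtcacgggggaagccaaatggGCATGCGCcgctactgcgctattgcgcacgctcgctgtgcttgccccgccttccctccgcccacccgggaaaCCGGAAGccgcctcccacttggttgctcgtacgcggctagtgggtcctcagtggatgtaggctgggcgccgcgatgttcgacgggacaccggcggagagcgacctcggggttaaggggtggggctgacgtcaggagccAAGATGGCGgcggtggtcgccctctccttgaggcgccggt
SDHD: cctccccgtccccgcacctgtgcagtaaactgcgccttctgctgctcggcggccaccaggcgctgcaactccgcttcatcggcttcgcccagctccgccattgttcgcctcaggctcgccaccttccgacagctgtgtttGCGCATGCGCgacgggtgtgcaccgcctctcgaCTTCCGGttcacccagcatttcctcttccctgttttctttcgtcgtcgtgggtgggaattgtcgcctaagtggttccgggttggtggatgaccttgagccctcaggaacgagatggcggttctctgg
ATP5MC1: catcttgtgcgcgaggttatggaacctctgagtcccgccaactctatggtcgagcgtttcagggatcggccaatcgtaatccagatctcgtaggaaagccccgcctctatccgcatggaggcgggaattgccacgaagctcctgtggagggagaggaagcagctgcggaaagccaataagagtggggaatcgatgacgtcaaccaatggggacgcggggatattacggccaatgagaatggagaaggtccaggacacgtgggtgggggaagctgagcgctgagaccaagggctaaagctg
The SDHB window holds all 3 motifs, which begin 200 and 128 bases before the start (NRF1 and ETS) and 10 bases after it (YY1). The SDHD window holds the NRF1 letters on both strands, beginning 110 and 108 bases before the start, and the ETS letters on the reverse strand 77 bases before it. The ATP5MC1 window holds none of the 3, which says only that these letters are not in it.

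Over the members, 71 of 91 had a promoter in the RefSeq table. GCATGCGC was in 18.3% of them and in 4.26% of all 15843 protein-coding promoters of the same length, CCGGAAG in 28.2% against 14.2%, and AAGATGGCG in 11.3% against 2.74%. At least 1 of the 3 was in 43.7% of the members' promoters and in 19.5% of all promoters. Among members, it was in 12 of 26 called higher (46.2%), 3 of 5 called lower and 16 of 36 not called (44.4%). The full NRF1 palindrome, of which GCATGCGC is a part, was in 5.63% of the members' promoters and in 1.75% of all, and with any base pair at its centre in 23.9% and 8.58%. A match is a description of letters and not a bound site.

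In complex III, the core proteins and the Rieske protein were higher, and the small subunits moved in both directions. The core proteins UQCRC1 and UQCRC2 face the matrix and are related to processing peptidases. UQCRC1 (ENSG00000010256, chr3:48599002-48610976, minus strand) was at 239 and 235 CPM in the siControl libraries against 293 and 299 CPM in the siALKBH5 libraries, with the groups well apart (log2 fold change 0.32, SE 0.03, adjusted p = 6.7e-11). UQCRC2 was at 374 and 390.3 CPM in siControl and 410.0 and 419 CPM in siALKBH5 (log2 fold change 0.12, SE 0.03, adjusted p = 7.5e-04). UQCRFS1, the Rieske iron-sulfur protein that passes electrons towards cytochrome c1, rose from 254 and 238 to 287 and 269.6 CPM (log2 fold change 0.18, SE 0.03, adjusted p = 4.1e-05). Neither overlapped between the groups, and both calls were lost in the limma fits on log2 FPKM. Of the 6 small subunits, which carry no redox centre, 1 was higher and 3 were lower, and their summed level was 683 and 688 CPM in siControl and 659 and 672 CPM in siALKBH5. UQCRQ was the higher one, at 89.6 and 95.2 CPM in siControl and 117 and 119 CPM in siALKBH5 (log2 fold change 0.35, SE 0.04, adjusted p = 5.8e-08). UQCRB was at 209 and 205 CPM in the siControl libraries against 179.9 and 179 CPM in the siALKBH5 libraries, and the groups did not overlap (log2 fold change -0.20, SE 0.03, adjusted p = 6.9e-06). UQCRH, the hinge protein, which helps cytochrome c1 meet cytochrome c, was at 220.2 and 231 CPM in siControl and 206 and 216 CPM in siALKBH5 (log2 fold change -0.10, SE 0.03, adjusted p = 0.017). Its call was lost without siControl replicate 2 (log2 fold change -0.06, adjusted p = 0.26) or siALKBH5 replicate 1 (-0.06, adjusted p = 0.25), with DESeq2 (adjusted p = 0.102) and in both limma fits (adjusted p = 0.064).

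UQCRHL is a copy of UQCRH on the same chromosome. It was at 18.4 and 18.3 CPM in siControl and 14.8 and 13.8 CPM in siALKBH5 (log2 fold change -0.36, SE 0.10, adjusted p = 0.0073), and its call was lost without siALKBH5 replicate 2 (adjusted p = 0.0508) or with DESeq2 (adjusted p = 0.059). The coding sequences of their principal transcripts, stop codon included, are 276 bases long and differ at 4 bases, with a longest identical run of 157 bases, so reads could be split between them and the values of UQCRHL are uncertain. UQCRHL took 7.70% and 7.34% of the summed CPM of the pair in siControl and 6.73% and 6.0% in siALKBH5. UQCR10 and UQCR11 were not called (-0.000166 ± 0.04 and 0.03 ± 0.07, log2 fold change ± SE).

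Of the 14 transcripts of complex IV tested, 5 were called higher (35.7%), 0 lower and 9 were not called. Over all genes tested, 19.3% were called higher and 17.3% lower. Over genes with a mean of at least 20 CPM, these shares were 28.8% and 24%. COX4I1, the largest nuclear subunit of complex IV, was at 661 and 666 CPM in the siControl libraries against 651 and 656 CPM in the siALKBH5 libraries. It was not called (log2 fold change -0.02, SE 0.02, adjusted p = 0.47), and neither were COX5B, COX6A1, COX6B1, COX6C, COX7A2L and COX7C, with log2 fold changes between -0.03 and 0.07. The direction of the COX5B, COX6B1 and COX7A2L values turned to the other side of 0 when libraries were scaled by size only. The 5 higher calls were NDUFA4, COX7B, COX7A2, COX8A and COX5A. NDUFA4, a subunit named for complex I, was at 225 and 225 CPM in siControl and 273 and 262 CPM in siALKBH5, without overlap (log2 fold change 0.25, SE 0.03, adjusted p = 5.1e-08). COX7B was at 216 and 197 CPM in siControl and 246 and 244 CPM in siALKBH5 (log2 fold change 0.25, SE 0.03, adjusted p = 6.1e-07), COX7A2, the form of most tissues other than muscle, was at 142 and 145 CPM in siControl and 168 and 171 CPM in siALKBH5 (log2 fold change 0.23, SE 0.04, adjusted p = 3.0e-06), and COX8A was at 136 and 135 CPM in siControl and 152 and 157 CPM in siALKBH5 (log2 fold change 0.19, SE 0.04, adjusted p = 1.1e-04). COX5A, which binds the matrix side of the complex, was at 229 and 233 CPM in siControl and 251 and 259 CPM in siALKBH5 (log2 fold change 0.14, SE 0.03, adjusted p = 4.0e-04). In all 5 the lowest siALKBH5 library was above the highest siControl library. With NDUFA4 and NDUFA4L2 counted in complex I by their names, the median of complex IV was 0.04 in place of 0.10. The isoforms of other tissues were at or near 0. COX6A2 and COX7B2 had 0 counts in every library, COX4I2 and COX8C had 1 count each over the 4 libraries, and COX7A1 reached at most 0.222 CPM. COX6B2, known from testis, was at 3.48 and 3.17 CPM in siControl and 3.59 and 4.92 CPM in siALKBH5 and was not called (log2 fold change 0.35, SE 0.22, adjusted p = 0.23). NDUFA4L2, known as a hypoxia-induced relative of NDUFA4, had 4, 14, 14 and 7 counts and was not called (log2 fold change 0.18, SE 0.59, adjusted p = 0.85).

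ATP synthase held both the most abundant member and the member with the largest called change. ATP5F1B (ENSG00000110955, chr12:56638175-56646068, minus strand), the catalytic beta subunit of the F1 head, had the highest level per length of all members, 562 FPKM as the mean of both groups. It was at 1167 and 1188 CPM in the siControl libraries against 1411 and 1451 CPM in the siALKBH5 libraries, with both siALKBH5 libraries above both siControl libraries (log2 fold change 0.28, SE 0.02, adjusted p = 7.0e-14). ATP5F1A, the alpha subunit, was at 793 and 793 CPM in siControl and 941 and 947 CPM in siALKBH5 (log2 fold change 0.25, SE 0.02, adjusted p = 3.6e-12), and ATP5F1C, the gamma subunit of the central stalk, was at 266 and 281 CPM in siControl and 299.8 and 306 CPM in siALKBH5 (log2 fold change 0.14, SE 0.03, adjusted p = 2.6e-04). ATP5F1D, the delta subunit, was not called (log2 fold change -0.01, SE 0.04, adjusted p = 0.87). ATP5F1E, the epsilon subunit and the smallest of the F1 part, was lower, at 189.8 and 186 CPM in the siControl libraries against 163 and 168 CPM in the siALKBH5 libraries. Its groups did not overlap (log2 fold change -0.18, SE 0.03, adjusted p = 5.2e-05). The 5 genes of F1 thus had 3 higher, 1 lower and 1 not called, and their summed level was at 115.9% of control. The peripheral stalk, which holds the head still, had 0 higher and 1 lower of 4 and a summed level at 98.1% of control. With edgeR, 0 of its genes were higher at an unadjusted p under 0.05, and 0 were with DESeq2 or limma. ATP5PB was the lower one, at 275 and 276 CPM in siControl and 263 and 259 CPM in siALKBH5 (log2 fold change -0.08, SE 0.03, adjusted p = 0.029), and its call was lost without any 1 of the 4 libraries (adjusted p = 0.062 to 0.17), with DESeq2 (adjusted p = 0.14) or with no filter on low counts (adjusted p = 0.076). ATP5PD was at 102 and 128 CPM in siControl and 124 and 109 CPM in siALKBH5, and the libraries of both groups overlapped. It was not called (log2 fold change 0.02, SE 0.06, adjusted p = 0.85), but without siControl replicate 1 it was lower (-0.13, adjusted p = 0.042) and without siControl replicate 2 higher (0.20, adjusted p = 0.0025). ATP5PO, the subunit that gives oligomycin sensitivity, was not called (log2 fold change 0.13, SE 0.06, adjusted p = 0.13) and was called higher without siControl replicate 1 (adjusted p = 0.023) or siALKBH5 replicate 2 (adjusted p = 0.017).

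The c ring is made of 1 protein that is encoded by 3 genes, ATP5MC1, ATP5MC2 and ATP5MC3, whose precursors differ in the import sequence that is cut off. The last 60 coding bases of each, stop codon included, are shown from GENCODE 29, 5′ to 3′ on the strand of the gene, with the 17 positions at which the 3 differ in capitals. They lie in the last exon of each gene, at chr17:48895710-48895769 (plus strand), chr12:53665314-53665373 (minus strand) and chr2:175178288-175178347 (minus strand).
ATP5MC1: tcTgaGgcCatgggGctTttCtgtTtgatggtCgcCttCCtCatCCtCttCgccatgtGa
ATP5MC2: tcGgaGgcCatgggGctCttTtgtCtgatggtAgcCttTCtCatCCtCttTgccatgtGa
ATP5MC3: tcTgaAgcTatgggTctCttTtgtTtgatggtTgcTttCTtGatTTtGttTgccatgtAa
Over the end of the coding sequence that aligned without gaps, which codes for the mature protein, ATP5MC1 and ATP5MC2 were 89.0% identical, and ATP5MC3 was 81.1% identical to either. The longest identical run between any 2 of them was 17 bases. ATP5MC1 (ENSG00000159199, chr17:48892765-48895871, plus strand) was at 39.7 and 46.5 CPM in the siControl libraries against 64.5 and 65.7 CPM in the siALKBH5 libraries. All siALKBH5 values were above all siControl values, and the means were 43.1 ± 4.77 CPM (SD, n = 2) in siControl and 65.1 ± 0.872 CPM (SD, n = 2) in siALKBH5 (log2 fold change 0.59, SE 0.06, adjusted p = 3.0e-09). ATP5MC3 was at 285 and 281 CPM in siControl and 314 and 315 CPM in siALKBH5, again without overlap (log2 fold change 0.15, SE 0.03, adjusted p = 5.3e-05). ATP5MC2 was at 236 and 237 CPM in siControl and 227 and 230.2 CPM in siALKBH5 and was not called (log2 fold change -0.05, SE 0.03, adjusted p = 0.24). Of the summed CPM of the 3 genes, ATP5MC1 thus took 7.08% and 8.23% in siControl and 10.7% and 10.8% in siALKBH5. ATP5MC2 took 42.0% in each siControl library and 37.5% and 37.7% after knockdown. Pseudogenes named after ATP5MC1 took 4.10% of the counts of the gene and its pseudogenes together.

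Among the small membrane subunits of ATP synthase, ATP5MD, also known as DAPIT, was at 72.7 and 74.7 CPM in siControl and 85.2 and 86.7 CPM in siALKBH5 (log2 fold change 0.22, SE 0.05, adjusted p = 3.3e-04). ATP5ME, which takes part in the pairing of ATP synthase into dimers, was at 54.1 and 54.1 CPM in siControl and 58.8 and 60.8 CPM in siALKBH5 (log2 fold change 0.14, SE 0.06, adjusted p = 0.044), and its call was lost without any 1 of the 4 libraries (adjusted p = 0.064 to 0.21), with DESeq2 (adjusted p = 0.16), with library size only (adjusted p = 0.091) or with no filter on low counts (adjusted p = 0.059). In ATP5ME, 61.6% of the exon bases are shared with MYL5 on the opposite strand. ATP5MF, ATP5MG and ATP5MPL were not called (-0.06, -0.00314 and -0.01, log2). ATP5IF1, the inhibitor that stops ATP synthase from running backwards, was at 80.2 and 81.5 CPM in siControl and 79.5 and 79.6 CPM in siALKBH5. It was not called (log2 fold change -0.02, SE 0.05, adjusted p = 0.73), and neither was ATP5S, known as factor B (log2 fold change -0.14, SE 0.09, adjusted p = 0.26).

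The rule did not use the length of the coding sequence, by which the members were put in 3 classes with limits set after the values were seen. The length is that of the longest annotated coding sequence of a gene. For some genes, such as ATP5MC2, this is longer than in the principal transcript. Of the 11 members with a coding sequence of 1000 bases or more, 8 were higher and 0 lower, with a median log2 fold change of 0.21, where 23.3% of all protein-coding genes tested of that length were higher and 18% lower, with a median of 0.01. In this class 0 members were lower at an unadjusted p under 0.05 with edgeR, DESeq2 or limma. Of the 22 with 500 to 1000 bases, 10 were higher and 1 lower (median 0.14), against 20% and 20.1% of all such genes (median -0.02). Of the 50 with fewer than 500 bases, 15 were higher and 6 lower (median 0.03), against 18.3% and 23.3% (median -0.03). The shares of all such genes were taken at every level, while 73 of the 83 members tested had a mean of at least 20 CPM. Abundant genes are called more often, so these shares mix length with level. Spearman's rho between coding length and log2 fold change was 0.23 over the 83 members and 0.07 over 12525 protein-coding genes tested. It is across genes of the same libraries, which are not independent replicates, and the small and large subunits differ in role as well as in length.

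Levels per length spanned a wide range among the members. FPKM here divide by the length of all annotated exons of a gene together, which weighs on this order, so that SDHD lies above SDHA in FPKM and below it in CPM. The highest in each complex were NDUFB7 in complex I (171 FPKM), SDHD in complex II (63.9), UQCRH in complex III (155), COX8A in complex IV (286) and ATP5F1B in complex V (562). Core subunits of complex I that are present in equal numbers in the complex were far apart, with 36.6 FPKM for NDUFV1, 3.63 for NDUFS7 and 0.297 for NDUFV2. The lowest of these levels stood beside overlaps of gene models. Of NDUFV2, 84.7% of the coding bases are shared with AP005263.1 on the same strand, of NDUFA7 78.3% with AC010323.1, and of NDUFA13 55.2% with AC011448.1. NDUFA7 had 5, 12, 13 and 7 counts and NDUFA13 30, 26, 22 and 26 counts. Leaving out readthrough genes, isoforms of other tissues, NDUFA4L2, UQCRHL and ATP5MGL, the median level was 7.43 FPKM over 11 members with at least 50% of the coding bases shared on the same strand, 19.4 FPKM over 3 with a smaller share and 45.2 FPKM over 66 with none. The range within the first class was wide, from 0.297 FPKM to 286 FPKM for COX8A. How the counting treated reads in shared exons is not given in the sources used here, and its part in these levels was not tested. The values of NDUFV2, NDUFA7 and NDUFA13 are therefore uncertain.

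**Figure D4:**
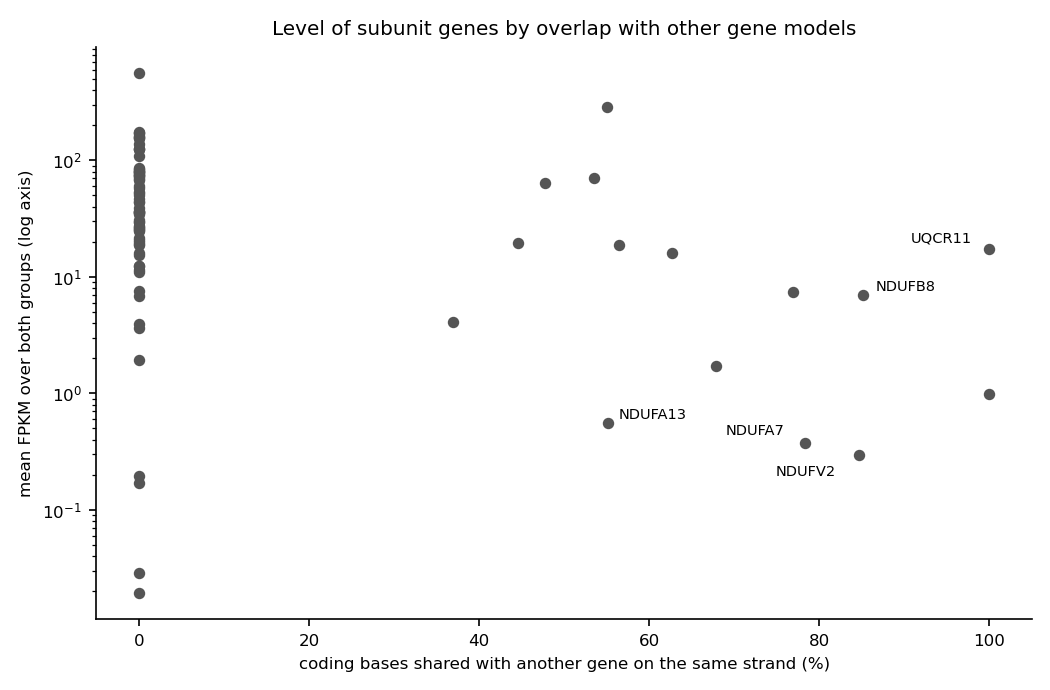
Percentage of coding bases shared with another gene model on the same strand (x) against the mean FPKM of both groups (y, log axis) for the members with a count, readthrough genes left out. Of the labelled points, NDUFV2, NDUFA7 and NDUFA13 lie under 1 FPKM, while NDUFB8 and UQCR11 with large shares lie at 6.95 and 17.5 FPKM. Points without a label also lie under 1 FPKM, such as COX6B2 at 0.993 FPKM.

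Exon bases of 50 members are shared with some other gene model, and of 37 members with one on the opposite strand. For most members, few counts lay on pseudogenes named after them. Reads that fit a gene and its copy equally well could have been left out of both, which these counts cannot show. The tables hold 160 pseudogenes named after 46 members, and only NDUFV2 (32.5%), COX6A1 (13.1%) and SDHA (10.2%) had over 10% of the joint counts on them.

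The partners of these subunits were read from the same fit. The 13 subunits encoded in mitochondrial DNA had 5 higher, 4 lower and 4 not called, a median log2 fold change of 0.01 and a summed level at 101.6% of control. Of all genes tested, 19.3% were higher and 17.3% lower. Of those with a mean of at least 20 CPM, 28.8% were higher and 24% lower. Genes of the mitochondrial genome took 10.2% of all counts in each siControl library and 9.63% and 9.64% after knockdown, while its protein-coding genes took 6.38% to 6.42% in all 4 libraries. MT-ND4L rose from 1520.4 and 1519.7 to 1855 and 1869.7 CPM (log2 fold change 0.29, SE 0.02, adjusted p = 1.4e-15) and MT-ND2 from 1311 and 1306 to 1501 and 1511 CPM (log2 fold change 0.20, SE 0.02, adjusted p = 3.7e-11). MT-CYB, the mitochondrial subunit of complex III, fell from 3433 and 3379.6 to 3062 and 3036 CPM (log2 fold change -0.16, SE 0.02, adjusted p = 2.3e-10), and MT-ND1 fell from 913 and 901 to 831 and 806 CPM (log2 fold change -0.15, SE 0.02, adjusted p = 8.7e-07). MT-ND4, MT-ND5 and MT-ATP6 were also higher (0.19, 0.11 and 0.06, log2; MT-ATP6 was not called in the limma fits, adjusted p = 0.107 and 0.101), and MT-ND3 and MT-CO3 lower (-0.07 and -0.06). MT-CO1, the catalytic subunit of complex IV, was at 22247 and 22449.7 CPM in siControl and 22172 and 22328 CPM in siALKBH5 and was not called (log2 fold change -0.01, SE 0.01, adjusted p = 0.68). It was called lower with library size only (-0.03, adjusted p = 0.027), and MT-CO2, not called with all libraries (0.01), was called higher without siControl replicate 1 (0.03, adjusted p = 0.035). Among the carriers of electrons between complexes III and IV, CYC1, which is a subunit of complex III outside the naming rule, was at 277 and 268 CPM in siControl and 321 and 315 CPM in siALKBH5 (log2 fold change 0.23, SE 0.03, adjusted p = 9.4e-08). CYCS, cytochrome c itself, was not called (log2 fold change -0.04, SE 0.04, adjusted p = 0.39).

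**Figure D5:**
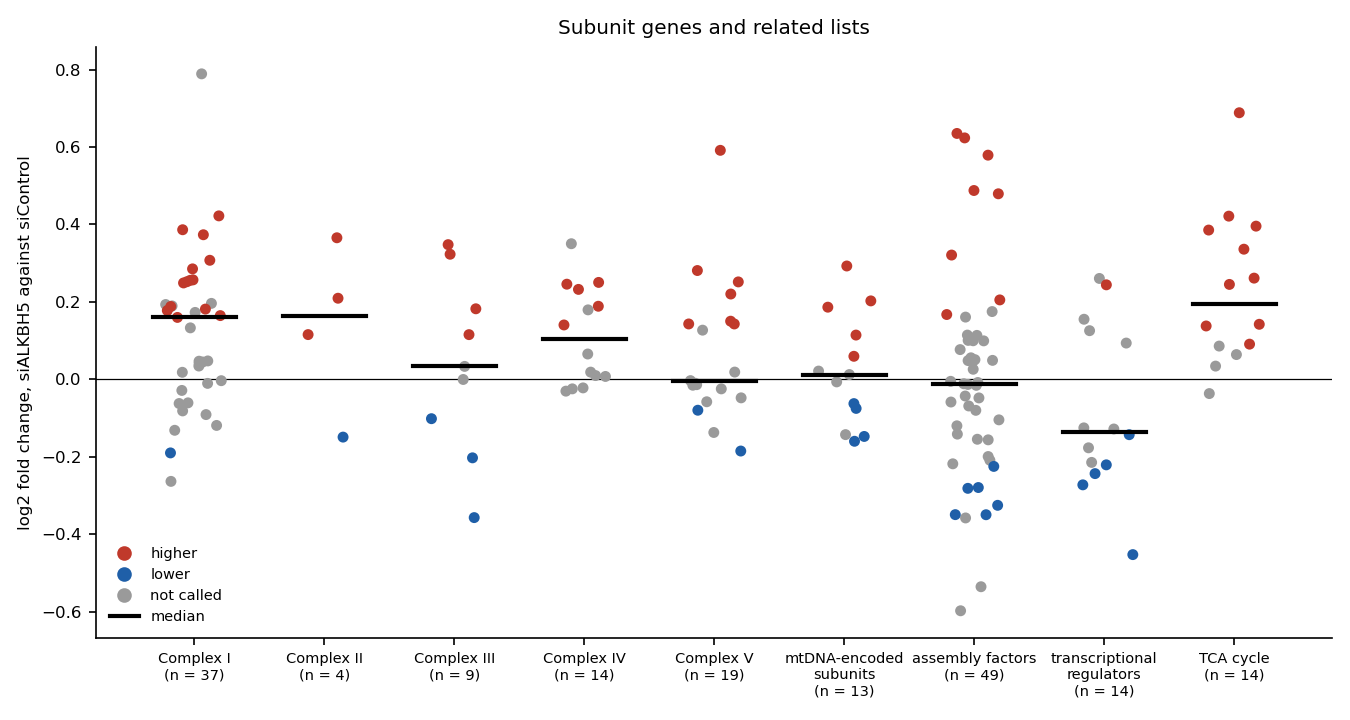
Log2 fold change of siALKBH5 over siControl (y) for the genes tested in each complex and in the related lists (x), 1 point per gene, with the median as a black bar. Red marks genes called higher, blue lower and grey not called; the medians run from -0.14 for the transcriptional regulators to 0.19 for the TCA cycle.

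The tricarboxylic acid cycle as a whole feeds NADH and succinate to complexes I and II. Of all genes tested, 19.3% were called higher and 17.3% lower. Of those with a mean of at least 20 CPM, 28.8% were higher and 24% lower. The 14 genes listed for the cycle had 10 higher (71.4%) and 0 lower. Their median was 0.19, and their summed level was at 117.1% of control. With edgeR 0 were lower at an unadjusted p under 0.05, and 0 were with DESeq2 or limma, which called 8 higher each. IDH2 was at 30.3 and 30.3 CPM in siControl and 49.95 and 47.7 CPM in siALKBH5 (log2 fold change 0.69, SE 0.07, adjusted p = 5.4e-10), and MDH2 was at 210.1 and 213 CPM in siControl and 281 and 286 CPM in siALKBH5 (log2 fold change 0.42, SE 0.03, adjusted p = 2.0e-13), neither with overlap. CS, citrate synthase, rose from 160.0 and 166 to 217 and 212 CPM (log2 fold change 0.40, SE 0.03, adjusted p = 1.5e-11). Not called were IDH3A, OGDH, DLD and SUCLA2 (0.03, 0.06, -0.04 and 0.09, log2). The calls of IDH3B and IDH3G (0.09 and 0.14) were lost without siALKBH5 replicate 1 (adjusted p = 0.093 and 0.16) or siControl replicate 2 (adjusted p = 0.11 and 0.065), and that of IDH3B also without siControl replicate 1 or siALKBH5 replicate 2 (adjusted p = 0.1 and 0.091).

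The list of transcriptional regulators also held factors that act on mitochondrial DNA, such as TFAM, MTERF1, TWNK and POLG. It had 1 higher and 5 lower of 14 tested, with a median of -0.14. Of all genes tested, 19.3% were higher and 17.3% lower. With DESeq2, 1 gene of the list was higher and 3 were lower. ESRRA, a nuclear receptor that acts with PGC-1 coactivators, fell from 239 and 243 to 204 and 209.8 CPM (log2 fold change -0.22, SE 0.03, adjusted p = 7.4e-07). TFAM, which packages mitochondrial DNA and starts its transcription, fell from 54.9 and 53.1 to 45.6 and 43.8 CPM (log2 fold change -0.27, SE 0.06, adjusted p = 5.5e-04). MTERF1 was at 10.4 and 11.005 CPM in siControl and 8.35 and 7.23 CPM in siALKBH5 (log2 fold change -0.45, SE 0.14, adjusted p = 0.0097), YY1 at 215 and 207 CPM in siControl and 197 and 185 CPM in siALKBH5 (log2 fold change -0.14, SE 0.03, adjusted p = 0.0012) and GABPA at 28.9 and 28.7 CPM in siControl and 24.6 and 24.0 CPM in siALKBH5 (log2 fold change -0.24, SE 0.08, adjusted p = 0.017). POLG, the polymerase of mitochondrial DNA, was higher, at 58.6 and 58.5 CPM in siControl and 69.6 and 69.1 CPM in siALKBH5 (log2 fold change 0.24, SE 0.05, adjusted p = 3.6e-04). NRF1 was not called (log2 fold change -0.21, SE 0.12, adjusted p = 0.17) and was lower without siALKBH5 replicate 1 (adjusted p = 0.0039). The call of GABPA was lost without siControl replicate 1, siControl replicate 2 or siALKBH5 replicate 2 (adjusted p = 0.079, 0.057 and 0.081), that of MTERF1 without siControl replicate 2 or siALKBH5 replicate 2 (adjusted p = 0.062 and 0.092), and that of YY1 without siALKBH5 replicate 2 (adjusted p = 0.0504). PPARGC1A was too low to be tested, at most at 0.621 CPM.

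Assembly factors, which build the complexes but do not stay in them, had 8 higher (16.3%), 6 lower (12.2%) and 35 not called of 49 tested. Of all genes tested, 19.3% were higher and 17.3% lower. The median of the assembly factors was -0.01, and with DESeq2 6 of them were higher and 2 lower. For complex I, NDUFAF2, NDUFAF3, FOXRED1 and ACAD9 were higher (0.64, 0.49, 0.58 and 0.17, log2) and NUBPL was lower (-0.28). NDUFAF2 lost its call without siALKBH5 replicate 2 (log2 fold change 0.38, adjusted p = 0.12), ACAD9 without siControl replicate 1 or siALKBH5 replicate 2 (adjusted p = 0.26 and 0.26), and NUBPL without siControl replicate 2 or siALKBH5 replicate 1 (adjusted p = 0.061 and 0.066). FOXRED1 was at 34.9 and 34.5 CPM in siControl and 51.6 and 52.2 CPM in siALKBH5, without overlap (log2 fold change 0.58, SE 0.06, adjusted p = 7.7e-09). For complex II, SDHAF1 was lower (-0.33), a call lost without siControl replicate 1, siALKBH5 replicate 1 or siALKBH5 replicate 2 (adjusted p = 0.29, 0.11 and 0.077). For complex III, UQCC2 was higher, at 13.7 and 14.4 CPM in siControl and 20.5 and 18.7 CPM in siALKBH5 (log2 fold change 0.48, SE 0.10, adjusted p = 4.2e-04). For complex IV, COA1 and COX10 were higher (0.32 and 0.21) and COA5, COA7, SCO1 and COX11 lower (-0.35, -0.35, -0.28 and -0.22). SCO1, a copper chaperone, was at 51.7 and 51.1 CPM in siControl and 42.0 and 42.8 CPM in siALKBH5 (log2 fold change -0.28, SE 0.06, adjusted p = 5.0e-04). Without siALKBH5 replicate 2 the calls of COX10, COX11 and COA7 were lost (adjusted p = 0.0514, 0.37 and 0.18, with COX11 at -0.13 on the log2 scale), and so they were without siControl replicate 1 (adjusted p = 0.093, 0.26 and 0.19). For ATP synthase, ATPAF2, a chaperone of the alpha subunit, was at 15.6 and 15.5 CPM in siControl and 24.0 and 23.9 CPM in siALKBH5, without overlap (log2 fold change 0.62, SE 0.09, adjusted p = 2.5e-06).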

How the data were processed

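RNA-seq was done on poly-A RNA of HaCaT cells with siControl or siALKBH5, 2 libraries each. The submitters' processing notes name CASAVA, HISAT2 2.0.5, featureCounts 1.5.0-p3, DESeq2 1.20.0 and hg38. The authors deposited raw counts per gene, and FPKM that are scaled within each of 2 tables and were not used here. The deposited comparisons of single libraries (fold changes and p-values) were not used either. The coordinates and lengths of all 91 members equalled those of GENCODE 29 (GRCh38). Library totals were 16017502 to 18837807 counts, which set the counting error of each value. The groups came from sample titles, and every column with values of a sample was mapped to its library.

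Counts of all 58735 genes were fitted in R 4.3.3 by the quasi-likelihood method of edgeR 4.0.16, after filterByExpr and TMM and without covariates, with Benjamini-Hochberg adjustment over 15075 genes. SE is the log2 fold change divided by the root of the F statistic. Alternatives were DESeq2 1.42.0, DESeq2 size factors, library size only, mitochondrial genes left out, no filter on low counts or 1 at a mean of 10 counts, a replicate block, leaving out each library, limma 3.58.1 on log2(FPKM + 1) or log2(FPKM + 0.1) with recomputed FPKM of mean 1 or more, and counts summed with pseudogenes. The FPKM in the limma fits were scaled by library totals without TMM, so these fits differ in scaling as well as in method. With 1 library left in a group, its spread was taken as that of the other group. The steps were tested on simulated data. Full statistics went by rule to core subunits, isoforms, the called members with the smallest adjusted p or largest change in each complex, the mtDNA-encoded subunits, and the called genes with the largest change in each related list. Other called genes were added after their values were seen. The members and lists were chosen with earlier results of these data known. The 8-letter NRF1 end, the classes of length and overlap and the minimum of 20 CPM were chosen after the data were seen. For 1 member, values of its own are not reported here.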

Additional observations from a re-analysis of the deposited data

How the results depend on the processing

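Over the 14 alternatives with a fit of their own, members called higher ranged from 26 to 34 and members called lower from 4 to 8, and the median log2 fold change stayed above 0. In all of them, 25 of 33 higher and 4 of 7 lower calls were made, and no call turned its direction. DESeq2 called 4 members lower. The median over members (0.12) was 0.0934 with library size only, 0.122 with no filter, 0.0666 with a mean of at least 10 counts, 0.035 with limma on log2(FPKM + 1) and 0.0355 on log2(FPKM + 0.1). Leaving out 1 library each gave 0.0581 to 0.124. The median of complex IV was 0.0422 with NDUFA4 and NDUFA4L2 in complex I. Members past the fold threshold were 0 under every alternative.

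With the replicate block, 34 members were higher and 8 lower. Deviations of same-numbered libraries from their group means correlated at 0.03 over 15075 genes, so the numbers were not taken as a pairing.

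The value of NDUFA4L2, which had few counts, changed sign. So did values near 0 that were not called with all libraries, and the cause was not tested. Of them, MT-CO2 was called at the upper end of its range (without siControl replicate 1), and MT-CO1 was called lower at -0.0286 with library size only. NDUFB7 was 0.00116 with DESeq2, 0.00107 with its size factors in edgeR and 0.00338 with no filter. COX5B, COX6B1, COX7A2L, MT-CO2 and MT-ND6 were -0.0123, -0.0146, -0.00342, -0.00969 and -0.00071 with library size only, -0.0121, -0.0137, -0.00262, -0.00952 and -0.000692 on log2(FPKM + 1), and -0.0122, -0.0138, -0.00274, -0.00952 and -0.000692 on log2(FPKM + 0.1). MT-CO1 was 0.000488 with no filter, and COX6A1 was 0.0138 with pseudogenes summed. Leaving out 1 library each gave -0.0117 to 0.0341 for COX5B, -0.0674 to 0.0245 for COX6A1, -0.0372 to 0.059 for COX6B1, -0.0933 to 0.0152 for CYCS, -0.0101 to 0.000413 for MT-CO1, -0.00516 to 0.0326 for MT-CO2, -0.381 to 1.24 for NDUFA4L2 and -0.0127 to 0.0109 for NDUFB7. Depth limits NDUFV2, NDUFA7, NDUFA13 and NDUFA4L2, which have few counts.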
